A study of Mus musculus with 6 samples.

Results

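The NRF2 and glutathione defence genes examined here were 10 genes, taken by symbol from the 25755 genes measured. The genes are Nfe2l2, which encodes the transcription factor NRF2, and Nqo1, Gclc, Gclm, Srxn1, Txnrd1, Slc7a11, Gpx1, Gpx4 and Idh1, which encode enzymes and a transporter of thiol and NADPH metabolism. They were taken by name and not by a threshold on the values, although earlier results of these data were known when the names were chosen, and all 10 genes were found in the table. RNA was sequenced in bulk from optic nerves of 6 mice aged 3 months, 3 after optic nerve crush (ON-CR) and 3 after sham surgery, to ask what nerve injury changes in tissue that can form optic glioma. Every mouse in both groups was NF1flox/flox;hGFAP-Cre. The human GFAP promoter drives Cre in this line, so Nf1 was removed from neuroglial progenitors and their descendants, whereas other cells of the nerve kept the floxed alleles. The sham mice carry the same deletion, so the values compare ON-CR with sham surgery in a nerve with Nf1-deficient glia and not in a wild-type nerve. Surgery was at 6 weeks of age and nerves were taken at 12 weeks of age. By that age, the paper reports, crushed nerves of this line had formed optic gliomas, with larger volumes and more dividing cells than sham nerves. The paper does not say whether the sequenced nerves were examined for tumour. ON-CR against sham may therefore also be glioma against no glioma, and the parts of injury and tumour were not tested. In the paper's first experiment in this line, both nerves were crushed and sham surgery was the incision alone. The paper's legend for the sequencing does not say whether both nerves were crushed. Sham mice carry the numbers 1 to 3 and ON-CR mice the numbers 4 to 6. The labels give 1 mouse number per library, and whether a library pooled several mice was not tested.

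NRF2 is kept low in unstressed cells because KEAP1 hands it to a ubiquitin ligase. Electrophiles and oxidants modify KEAP1, NRF2 accumulates, pairs with a small MAF protein and binds antioxidant response elements near genes for glutathione synthesis, thioredoxin reduction, quinone reduction and NADPH supply. Because NRF2 is set largely by its stability, the transcript of Nfe2l2 does not measure its activity. In the nervous system, astrocytes are the cells best known for this response and for exporting glutathione precursors to neighbouring cells.

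The core of the antioxidant response element, TGACNNNGC, was searched on both strands of RefSeq promoter windows of GRCm38.p6, which run from 250 bases before to 50 bases after a transcription start. Windows were given for 9 of the 10 genes, and Gclc had none. The core lay in windows of 4 genes, and these matches are shown with 6 bases on either side because they are the letters in which a factor of this family could be looked for. Capitals mark the core, and each sequence is written 5′ to 3′ on the minus strand, which is the gene's own strand for Nfe2l2 and the opposite one for Srxn1, Gclm and Txnrd1.
Nfe2l2, chr2:75704889-75704909: cccaccTGACTCCGCcatgcc
Gclm, chr3:122245417-122245437: gagagtTGACGGTGCgcccgg
Txnrd1, chr10:82859108-82859128: tcagaaTGACAAAGCaaaaat
Srxn1, chr2:152105546-152105566: tcactcTGACCTAGCtgccca
The matches began 240 bases before the RefSeq start of Nfe2l2, 134 before that of Gclm and 28 after that of Srxn1. Distances are to the first base of the core along the gene's own strand. The RefSeq starts are not always the gene ends printed below, which come from another annotation, GENCODE. The match for Txnrd1 lay 92 bases before an alternative start inside the gene, and not at the 5′ end of the gene as annotated. No match overlapped the AP-1 motif TGANTCA. Of all 32851 promoter windows, 12.4% held the core, as did those of 14% of genes, so a match is common, and the absence of a match in the windows of Nqo1, Slc7a11, Gpx1, Gpx4 and Idh1 says only that these letters are not within them.

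Each library held 17414014 to 23620951 estimated reads, and a gene of the set was covered by 247 to 9118 of them. Oligodendrocyte markers had the highest summed level of the nerve cell types checked. It was 1314000 to 1871000 in sham mice and 641200 to 761800 in ON-CR mice. All 13 had log2 fold changes below 0, and 9 were called lower. The test is given in the next paragraph, and 2.1% of all genes were called. Microglia and macrophage markers summed to 22390 to 28570 in sham mice and 32400 to 51030 in ON-CR mice, with 7 of 14 called higher. Of the 14, 2 had log2 fold changes below 0, Tmem119 at -0.27 and P2ry12 at -0.35, neither of them called. Astrocyte markers summed to 240300 to 294800 in sham mice and 325100 to 359700 in ON-CR mice, with Vim called higher and S100b lower among 12. Gfap held the largest part of these sums, with means of 114862 in sham and 179241 in ON-CR mice, and was not called. Of the 12 log2 fold changes, 8 were above 0 and 4 below, among them Aldoc at -0.62. Photoreceptor markers, which would mark retina, summed to no more than 59.2 in any library. Some libraries stood apart. ON-CR mouse 6 had a B and plasma cell marker sum of 98670, against at most 2430 in sham mice, ON-CR mouse 5 had the highest neuronal marker sum at 7773, against at most 3109 in sham mice, and ON-CR mouse 4 alone of its group had high Ddx3y, a Y-linked gene, at 976. Xist, the transcript of the inactive X chromosome, was at 2.14 to 30.9 in sham mice and 2708 to 6357 in ON-CR mice, so sex and surgery cannot be told apart. The library of ON-CR mouse 4 held both, with Xist at 2708. The part of these differences in the results that follow was not tested.

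Values are normalized read counts as deposited. A gene was called when its adjusted p, from limma on log2(value + 1) with Benjamini-Hochberg adjustment over all 25755 genes, was at or under 0.05, and log2 fold changes are ON-CR minus sham. Of the 10 genes, 1 was called lower, Idh1, and 0 were called higher, where 2.1% of all genes were called (1.13% lower and 0.971% higher). An unadjusted p at or under 0.05 was found for 3 genes, where 15.6% of all genes had one. The groups did not overlap for 3 genes, Idh1 and Nqo1 lower and Gpx1 higher, where 21.6% of all genes, and 30.2% of the 9719 genes with a mean value of at least 200, did not overlap (4.25% of the latter were called). The count is therefore close to the share among genes of such levels. The median log2 fold change was -0.06 for the 10 genes and 0.03 for all genes, and total-sum scaling, which shifts the median of all genes by 0.127, turned the former to 0.07.

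**Figure D1:**
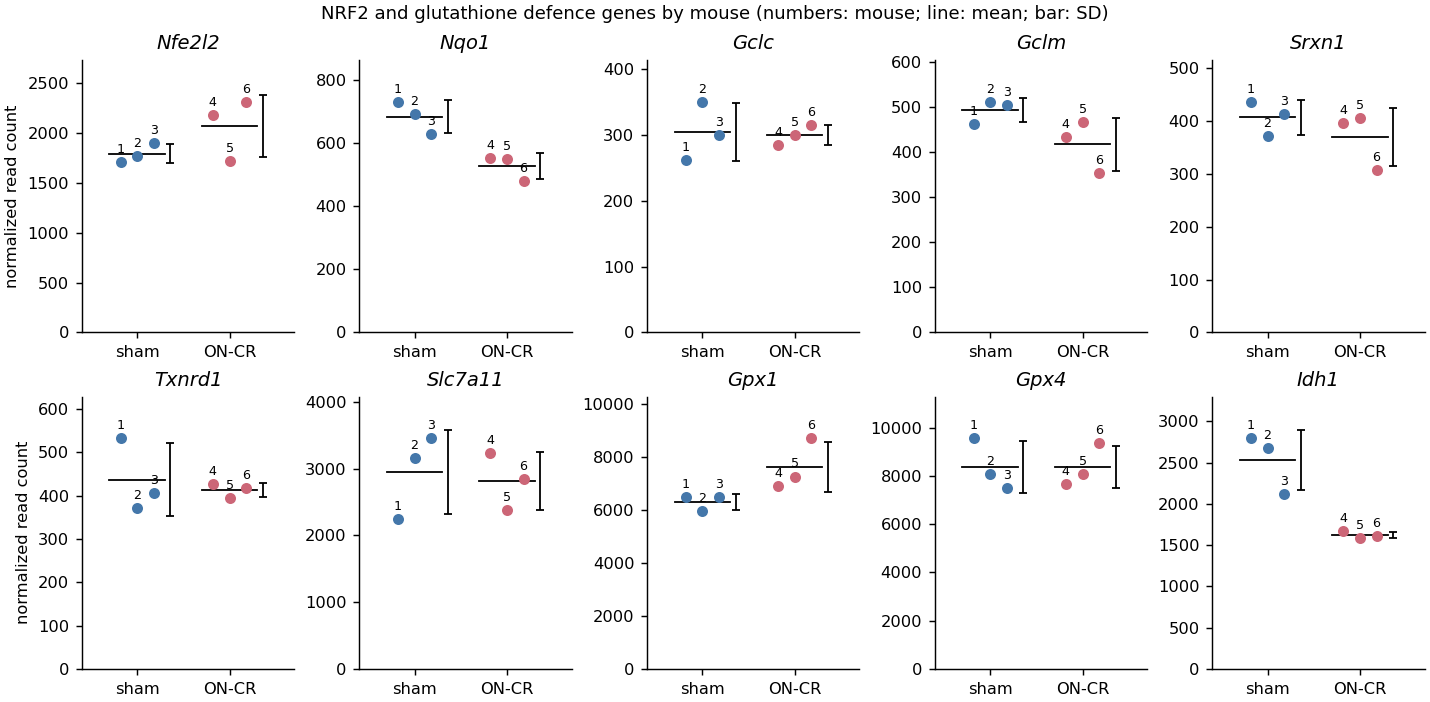
Normalized read count of each of the 10 genes, with 1 point per mouse, sham in blue and ON-CR in red, and bars for the mean and SD of 3 mice. The groups are apart for Idh1, Nqo1 and Gpx1 and overlap for the other 7 genes.

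Nfe2l2 (ENSMUSG00000015839.6, GRCm38 chr2:75675513-75704641, minus strand), the gene for NRF2 itself, was at 1713, 1765 and 1898 in sham mice 1 to 3 and at 2179, 1718 and 2314 in ON-CR mice 4 to 6. ON-CR mouse 5 lay at the low end of the sham range while the other two lay above it. The mean was 1792 ± 95.5 after sham surgery and 2070 ± 313 after ON-CR (SD, n = 3 each), with a log2 fold change of 0.20 with a 95% interval of -0.09 to 0.49, and it did not pass the test (limma adjusted p = 0.518).

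Nqo1 (ENSMUSG00000003849.8, chr8:107388225-107403206, minus strand) encodes a quinone reductase that is widely used as a readout of NRF2. It was at 730, 689.7 and 628 in sham mice and at 551, 548 and 479 in ON-CR mice. All ON-CR values lay below all sham values, with mouse 6 the lowest. The mean went from 683 ± 51.3 to 526 ± 41.1 (SD, n = 3 each), and the log2 fold change was -0.38 (SE 0.13, 95% interval -0.66 to -0.09). The unadjusted p of 0.0151 became 0.185 after limma's adjustment over all genes, so Nqo1 was not called.

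The glutathione synthesis genes did not separate the groups. Gclc (ENSMUSG00000032350.9, chr9:77754535-77794485, plus strand), the catalytic subunit of glutamate-cysteine ligase, was at 262, 351 and 301 in sham mice and at 285, 299.8 and 316 in ON-CR mice. The ON-CR values lay within the sham range, with a log2 fold change of -0.01 and a 95% interval of -0.36 to 0.34. Gclm (ENSMUSG00000028124.15, chr3:122245557-122270732, plus strand), the modifier subunit that raises the affinity of the enzyme for glutamate, was at 464, 513 and 506 in sham mice and at 435, 468 and 353 in ON-CR mice. Its ON-CR values reached below the sham range in mice 4 and 6 and into it in mouse 5. The mean was 494 ± 26.6 after sham surgery and 418 ± 58.9 after ON-CR (SD, n = 3 each), with a log2 fold change of -0.25 and an interval of -0.57 to 0.08 (limma adjusted p = 0.459). The exons of Gclm share 296 bases with the antisense gene Gm17494 and 244 with the pseudogene Gm6061, and since the library kit does not mark strand, reads over the former cannot be assigned to a strand. The ratio of Gclm to Gclc within a library, which is not corrected for length, was 1.77, 1.46 and 1.68 in sham mice and 1.52, 1.56 and 1.12 in ON-CR mice, so the groups overlapped in this ratio too.

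Slc7a11 (ENSMUSG00000027737.10, chr3:49892526-50443614, minus strand) encodes the light chain of the cystine/glutamate antiporter, which imports the cystine needed for glutathione and exports glutamate. It was at 2245, 3161 and 3457 in sham mice and at 3239, 2379 and 2839 in ON-CR mice. The sham mice alone spanned the whole of the ON-CR range. The mean was 2954 ± 632 after sham surgery and 2819 ± 430.4 after ON-CR (SD, n = 3 each), and the log2 fold change of -0.06 had an interval of -0.44 to 0.33. Slc3a2, the heavy chain of the same transporter, had a log2 fold change of 0.07 (limma adjusted p = 0.860) and was named after its values were seen.

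The groups were apart for the glutathione peroxidase Gpx1 and overlapped for Gpx4, and the difference between these genes was not tested. Gpx1 (ENSMUSG00000063856.7, chr9:108338903-108340343, plus strand), which reduces hydrogen peroxide in the cytosol and mitochondria, was at 6495, 5975 and 6488 in sham mice and at 6926, 7276 and 8724 in ON-CR mice. All ON-CR values lay above all sham values. The mean was 6319 ± 298 after sham surgery and 7642 ± 954 after ON-CR (SD, n = 3 each), with a log2 fold change of 0.27 (SE 0.12, 95% interval 0.01 to 0.53), and the unadjusted p of 0.0458 became 0.309 after limma's adjustment. Gpx4 (ENSMUSG00000075706.10, chr10:80047166-80056439, plus strand), which reduces lipid hydroperoxides in membranes and thereby holds back ferroptosis, was at 9559.7, 8073 and 7477 in sham mice and at 7659, 8079.8 and 9347 in ON-CR mice. Both groups covered almost the same range, and the log2 fold change of 0.0012 had an interval of -0.29 to 0.29. The ratio of Gpx4 to Gpx1 within a library, again not corrected for length, was 1.47, 1.35 and 1.15 in sham mice and 1.11, 1.11 and 1.07 in ON-CR mice, so every ON-CR ratio lay below every sham ratio. This ratio was chosen after the values were seen and is given without a test. Gpx4 has a transcribed processed pseudogene, Gpx4-ps2 (chr10:45875291-45876086), that had a mean of 2056 ± 96.4 after sham surgery and 2254 ± 231 after ON-CR (SD, n = 3 each), and reads of the near-identical copies may have been split between them.

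The thioredoxin branch also overlapped between groups. Txnrd1 (ENSMUSG00000020250.10, chr10:82833951-82897712, plus strand), the cytosolic thioredoxin reductase, was at 533, 372 and 406 in sham mice and at 428, 394 and 417 in ON-CR mice. Sham mouse 1 was the highest library, and the ON-CR values lay between it and sham mouse 2. The log2 fold change was -0.06 with an interval of -0.42 to 0.29. Srxn1 (ENSMUSG00000032802.8, chr2:152105516-152111376, plus strand), sulfiredoxin, which restores over-oxidized peroxiredoxins, was at 437, 372 and 414 in sham mice and at 397, 406 and 307 in ON-CR mice. ON-CR mouse 6 alone lay below the sham range. The log2 fold change was -0.15 with an interval of -0.50 to 0.20 (limma adjusted p = 0.707).

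Idh1 (ENSMUSG00000025950.16, chr1:65158616-65186500, minus strand), the cytosolic isocitrate dehydrogenase that makes NADPH and 2-oxoglutarate, was lower after ON-CR. It was at 2796, 2674 and 2118 in sham mice and at 1667, 1590.3 and 1616 in ON-CR mice. The 3 ON-CR values lay close together and below the lowest sham value. The mean fell from 2529 ± 362 to 1624 ± 39.1 (SD, n = 3 each), with a log2 fold change of -0.63 (SE 0.13, 95% interval -0.91 to -0.35, limma adjusted p = 0.0339). In bulk tissue, fewer cells of a type and less RNA per cell cannot be told apart, and the oligodendrocyte markers, whose median change was -0.61, -1.07 and -0.82 in ON-CR mice 4, 5 and 6 relative to the sham mean on the log2 scale, were also lower in the same mice. The medians of oligodendrocyte precursor, endothelial and meningeal fibroblast markers were below 0 in these mice too, at -0.67 to -0.08. Whether any of these declines accounts for part of that of Idh1 was not tested. The call was lost without sham mouse 1 (limma adjusted p = 0.133), sham mouse 2 (0.195), ON-CR mouse 4 (0.0682), ON-CR mouse 6 (0.182) or both ON-CR mice 5 and 6 (0.512), was kept without ON-CR mouse 5 (0.0451), and the log2 fold change was between -0.75 and -0.50 in all 16 alternative fits. Its mitochondrial counterpart Idh2 was at 1634, 1714 and 1656 in sham mice and at 1694, 1816 and 1623 in ON-CR mice (log2 fold change 0.04, limma adjusted p = 0.910). The ratio of Idh1 to Idh2 within a library was 1.71, 1.56 and 1.28 in sham mice and 0.984, 0.876 and 0.996 in ON-CR mice. Idh2 and this ratio were chosen after the values were seen.

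**Figure D2:**
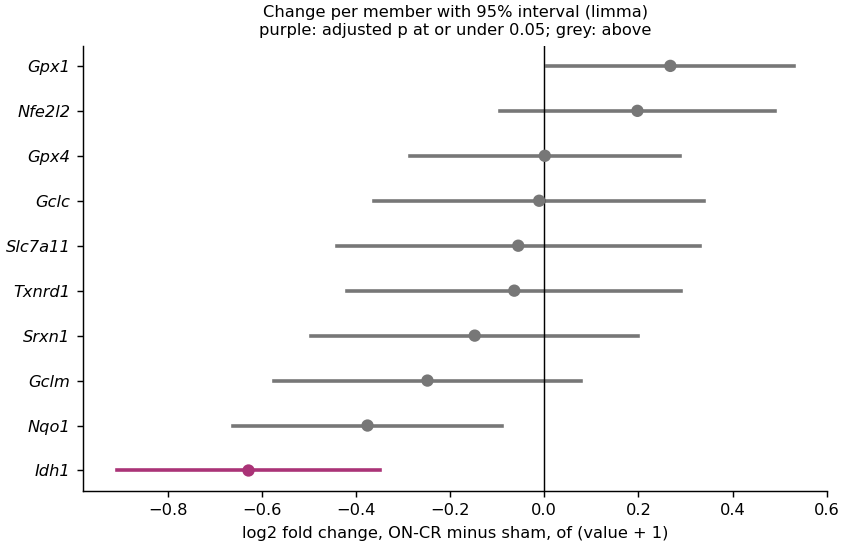
Log2 fold change of value + 1, ON-CR minus sham, for each of the 10 genes, with the 95% interval from limma for single genes. Idh1, in purple, is the only gene called after adjustment, and the intervals of Nqo1 and Gpx1 also leave out 0 before adjustment.

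Single mice differed in which genes they moved. ON-CR mouse 6 had the lowest value of the 6 libraries for Nqo1, Gclm and Srxn1, and the highest for Nfe2l2 and Gpx1. In log2 units from the sham mean it was at -0.51 for Nqo1, -0.48 for Gclm, -0.40 for Srxn1, 0.37 for Nfe2l2 and 0.47 for Gpx1. ON-CR mouse 5 was at -0.31 for Nqo1 and -0.66 for Idh1 and, of the other 8 genes, lay farthest from the sham mean for Slc7a11, at -0.29, and Gpx1, at 0.20. Among sham mice, mouse 1 had the highest Txnrd1 and the lowest Slc7a11 of all libraries, at 0.30 and -0.37 from the sham mean. Summed over the 10 genes, sham libraries held 23690 to 25230 and ON-CR libraries 23160 to 26710.

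**Figure D3:**
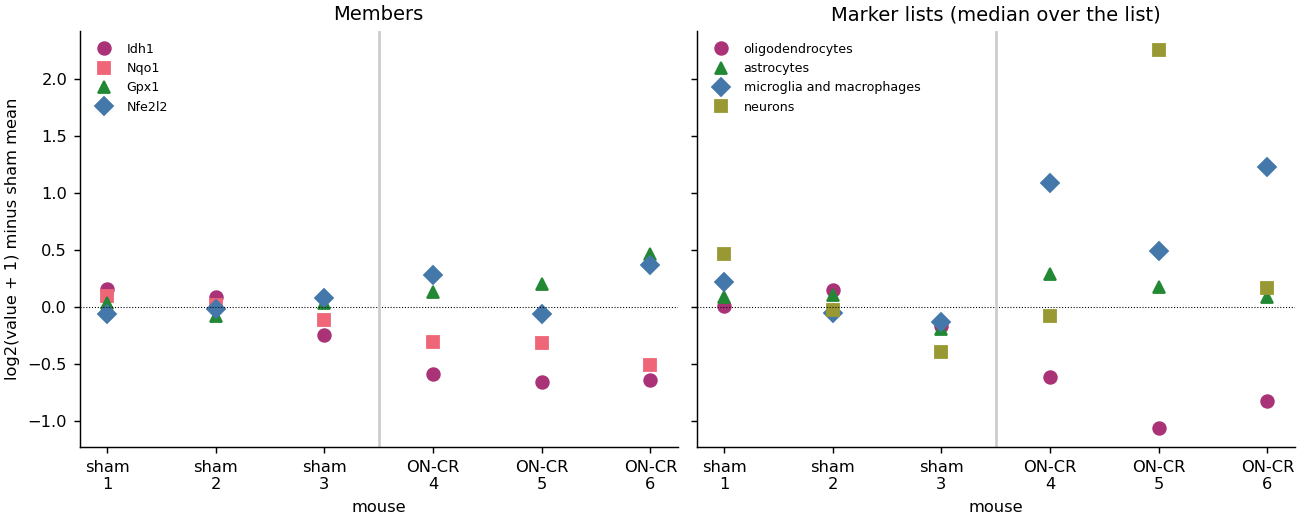
Difference from the sham mean, in log2 units of value + 1, by mouse, for Idh1, Nqo1, Gpx1 and Nfe2l2. Beside them are the medians over the oligodendrocyte, astrocyte, microglia and macrophage, and neuronal markers. Idh1 and Nqo1 are below 0 and Gpx1 is above 0 in all 3 ON-CR mice, whereas Nfe2l2 is above 0 only in ON-CR mice 4 and 6 of that group.

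Per kilobase of exon, the levels fell into an order that spanned the range from the peroxidases to the thioredoxin reductase. Gpx4 had a median of 4685 normalized reads per kb over the 6 mice (range 4337 to 5545) and Gpx1 one of 4657 (4147 to 6054), and these ranges overlapped. In each ON-CR mouse Gpx1 was the higher of the pair (4806, 5049 and 6054 against 4443, 4687 and 5422), whereas Gpx4 was the higher in sham mice 1 and 2. The divisor was the union of all annotated exons, 1724 bases for Gpx4 and 1441 for Gpx1. The order therefore depends on the annotated transcripts. Idh1 had a median of 683 (573.9 to 1009), Nfe2l2 one of 482 (451 to 609.7) and Nqo1 one of 379.8 (308 to 470.1), with Nfe2l2 overlapping both neighbours. Slc7a11 followed at 216 (161 to 248) and Srxn1 at 142 (109 to 155), whose ranges did not meet. Gclc at 79.7 (69.6 to 93.1), Gclm at 74.0 (56.1 to 81.5) and Txnrd1 at 58.1 (52.5 to 75.2) overlapped one another.

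**Figure D4:**
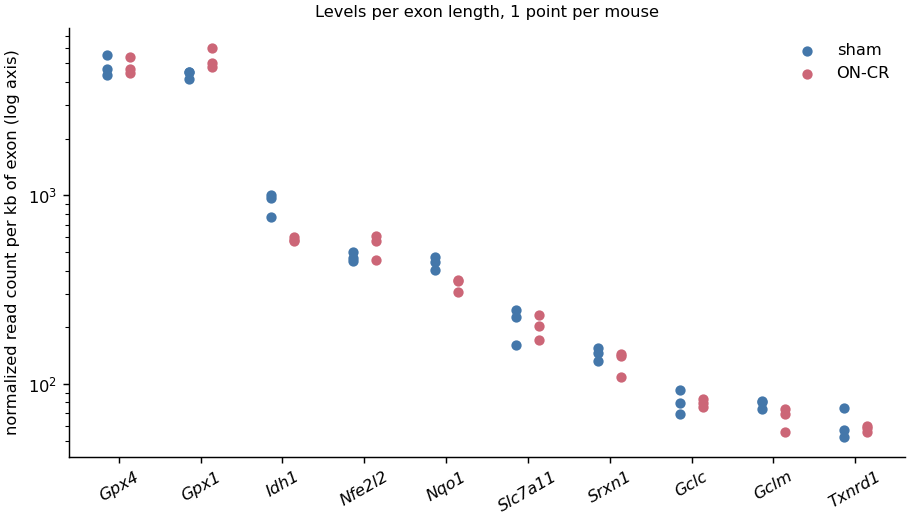
Normalized read count per kb of exon for each gene on a log axis, with 1 point per mouse, sham in blue and ON-CR in red, ordered by the median. The peroxidases Gpx4 and Gpx1 lie at 4147 or above in every mouse and Gclc, Gclm and Txnrd1 at 93.1 or below.

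The genes whose profile over the 6 libraries was nearest to that of Idh1, by mean absolute log2 difference from it after centring on the sham mean, were Xrcc3 (0.0488), Mccc2 (0.0502), Tmem42 (0.052), AI597479 (0.052) and Tek (0.0527), among 14435 genes with a mean value of at least 50. Of these, Mccc2, a subunit of methylcrotonyl-CoA carboxylase, was called lower (log2 fold change -0.69, limma adjusted p = 0.0388), and the other 4 were not, with log2 fold changes of -0.64 to -0.54. Tek was also among the endothelial markers.

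Of 146 further genes of the pathway in 10 lists, 142 were in the table, and 4 were called higher and 3 lower. This was 4.93% of the 142, against 2.1% of all genes and 4.25% of genes with a mean value of at least 200. With total-sum scaling, 9 were called higher and 1 lower. The median over the 142 was -0.09, against 0.03 over all genes. Log2 fold changes were below 0 for 92 of the 142 and for 12147 of all 25755 genes. Total-sum scaling shifts the median of all genes by 0.127, and the medians and signs over each list were not recomputed under it.

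The regulators of NRF2 gave 0 calls among 12, with a median of -0.04. Keap1, its inhibitor, was at 1652, 1339 and 1268 in sham mice and at 1273, 1274 and 1211 in ON-CR mice (log2 fold change -0.17, limma adjusted p = 0.563), and was named after its values were seen. Bach1, which competes with NRF2 for the same elements as a repressor, was at 136, 138 and 164 in sham mice and at 262, 212 and 216 in ON-CR mice. All ON-CR values were higher, with a log2 fold change of 0.65, but limma's adjusted p was 0.102. The log2 fold change of its relative Bach2 was 0.28 (adjusted p = 0.515) and that of the small MAF gene Mafk -0.21 (adjusted p = 0.551).

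Among 20 other NRF2 targets, Hmox1 was called higher and the rest were not called, with a median of -0.09. Hmox1, haem oxygenase, which degrades haem and is induced by NRF2 and by other stress factors, was at 465, 337 and 380.4 in sham mice and at 759.8, 775 and 964 in ON-CR mice. Its groups were well apart, with a log2 fold change of 1.08 (SE 0.16, limma adjusted p = 0.00855), and the call was lost without sham mouse 2 or ON-CR mouse 6. The microglia and macrophage markers had medians of 1.09, 0.49 and 1.23 in ON-CR mice 4, 5 and 6. These are log2 units above the sham mean, and the part of these markers in the Hmox1 result was not tested.

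The 17 genes of glutathione synthesis and recycling gave 0 calls, with a median of -0.16 and 11 below 0. Gss, glutathione synthetase, which completes the tripeptide, was at 1282, 1383 and 1191 in sham mice and at 1017, 813 and 982 in ON-CR mice (log2 fold change -0.46, limma adjusted p = 0.107). For Glo1, the glutathione-dependent glyoxalase, it was -0.86 (adjusted p = 0.0763). Chac1, which cleaves glutathione, had one of 0.97 (adjusted p = 0.201), which was 1.31 and called without ON-CR mouse 5 (adjusted p = 0.043). Without that mouse, 854 of all genes were called, against 540 in the reported fit. Gsr, which regenerates reduced glutathione from NADPH, had one of 0.27, was not called and was named after its values were seen.

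The glutathione transferases gave 3 calls among 19, 1 higher and 2 lower, where 2.1% of all genes were called. Their median was -0.13, with 15 below 0. Hpgds, the haematopoietic prostaglandin D synthase, a sigma-class transferase known in microglia, was at 209, 186 and 232 in sham mice and at 629, 476 and 697 in ON-CR mice (log2 fold change 1.51, SE 0.18, limma adjusted p = 0.003), and was called with any single mouse left out. ON-CR mouse 5 was the lowest of its group, as it was for the microglia and macrophage markers, whose part in this was not tested. Gstm5, a mu-class transferase, fell from 8113, 8290.1 and 6813 to 5218, 5441 and 4893 (log2 fold change -0.57, SE 0.11, adjusted p = 0.0336). Its exons share 178 bases with the antisense gene 4933431E20Rik, and its relatives are similar in sequence, so its reads are less certain. Mgst3, a microsomal transferase, fell from 1396, 1494 and 1052 to 884, 771 and 790.2 (log2 fold change -0.67, SE 0.15, adjusted p = 0.0493). The call of Gstm5 was lost without sham mouse 1 or 2 or ON-CR mouse 4 or 6, and that of Mgst3 when any single mouse other than sham mouse 3 was left out, with total-sum or TMM-like scaling and with a pseudocount of 0.5.

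Of the other glutathione peroxidases, 4 of 6 were in the table and 0 were called. Gpx3, the secreted form, was at 1974, 721 and 901 in sham mice and at 1556, 4095 and 1713 in ON-CR mice, a spread set by ON-CR mouse 5 and sham mouse 1 (log2 fold change 1.03, limma adjusted p = 0.254). Gpx7 and Gpx8, which act in the endoplasmic reticulum, had log2 fold changes of -0.07 and -0.09.

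Among 16 thioredoxin and peroxiredoxin genes, Sesn1 was called lower and the rest were not called, with a median of 0.04. Sesn1, a sestrin induced by p53 and FOXO factors, fell from 1438, 1222 and 1335 to 802, 927 and 793 (log2 fold change -0.66, SE 0.12, limma adjusted p = 0.0244), and of the single mice only ON-CR mouse 5 could be left out without loss of the call, which total-sum scaling also removed (adjusted p = 0.0602). The 13 genes of NADPH supply gave 0 calls, with a median of -0.04. Pgls, of the pentose phosphate pathway, had the largest difference among them, -1.66, and was at 795, 355 and 145 in ON-CR mice against 1057 to 1149 in sham mice (limma adjusted p = 0.105). Without ON-CR mouse 4 the difference was -2.26 and called (adjusted p = 0.00805), and without ON-CR mouse 6 it was -1.04 and not called. The mitochondrial folate enzymes Aldh1l2 and Mthfd2 had log2 fold changes of 0.67 (adjusted p = 0.0769) and 0.62 (adjusted p = 0.254), and both were called without ON-CR mouse 5 (0.83, adjusted p = 0.0194, and 0.92, adjusted p = 0.0144). That fit called 854 of all genes, against 540 in the reported fit.

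Gpx1, Gpx4 and Txnrd1 are selenoproteins, and the 17 genes of the list of other selenoproteins and of the factors that insert selenocysteine had 14 log2 fold changes below 0 and a median of -0.21, but 0 calls. The groups did not overlap for 7, all lower in ON-CR mice, where 11% of all genes, and 19.5% of genes with a mean value of at least 200, were lower without overlap. The glutathione transferases also had 7 such genes and the genes of glutathione synthesis and recycling 4. Sephs2, which makes the selenium donor, was at 492, 449 and 387 in sham mice and at 287, 321 and 241 in ON-CR mice (log2 fold change -0.65, limma adjusted p = 0.0791). For Eefsec, the elongation factor for selenocysteine, it was -0.41 (adjusted p = 0.206) and for Dio2, a deiodinase that is itself a selenoprotein, -1.47 (adjusted p = 0.113). Without ON-CR mouse 5, where 854 of all genes were called, Sephs2 (adjusted p = 0.0439) and Dio2 (-1.90, adjusted p = 0.0166) were called. Without ON-CR mouse 6, Dio2 was at -0.92.

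The 16 genes of ferroptosis and lipid peroxidation gave 0 calls and a median of -0.12. The log2 fold change of Alox12, a lipoxygenase, was -1.27 (limma adjusted p = 0.102), Cyb5r1, a reductase that can drive lipid peroxidation, was at 0.54 (adjusted p = 0.247) and Tfrc, the transferrin receptor, at -0.43 (adjusted p = 0.244). Among the 12 measured genes of superoxide production and removal, the median was 0.15 and 2 were called, where 2.1% of all genes were called. The 2 calls were the membrane subunits of the phagocyte NADPH oxidase, a source of superoxide and not a defence against it. Cyba rose from 1289, 1169 and 1250.0 to 2345, 1955 and 2944 (log2 fold change 0.95, SE 0.15, adjusted p = 0.0117). Cybb rose from 504, 258 and 423 to 1013, 642 and 1358 (log2 fold change 1.33, SE 0.29, adjusted p = 0.0489). In both genes ON-CR mouse 5 was the lowest of its group, as for the microglia and macrophage markers, whose part here was not tested either. The call of Cyba was lost without any of the 3 sham mice or ON-CR mouse 6, and that of Cybb when any single mouse other than ON-CR mouse 5 was left out, with a pseudocount of 0.5, with a minimum value of 10 in 3 libraries and in the robust fit.

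**Figure D5:**
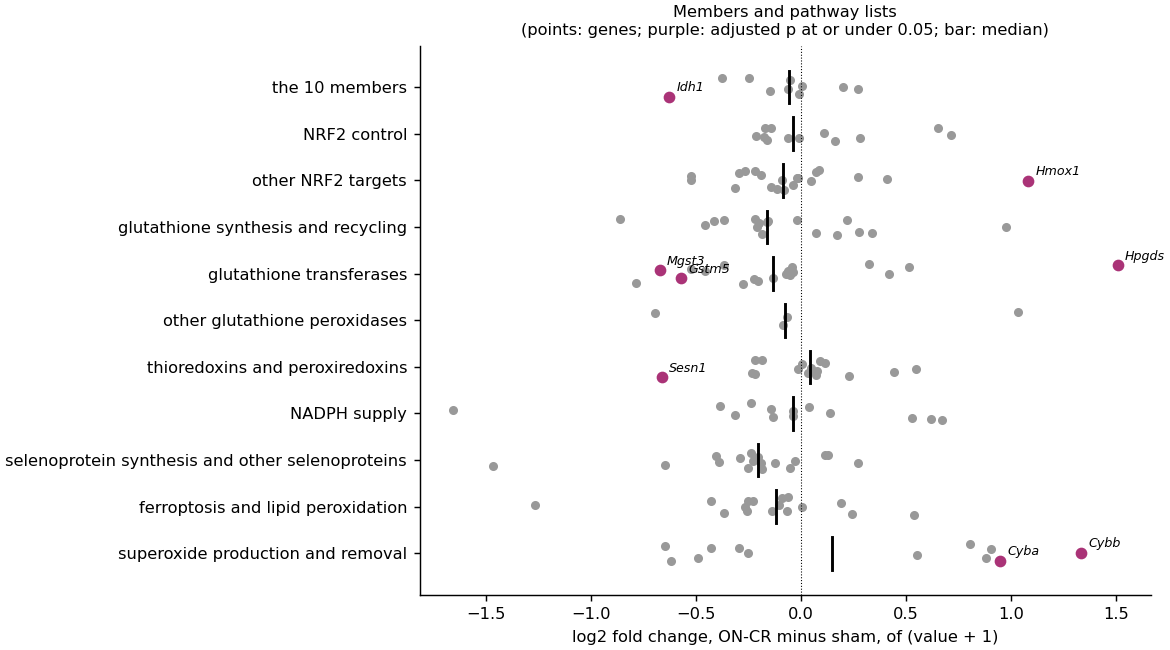
Log2 fold change, ON-CR minus sham, of the 10 genes and of 10 lists of pathway genes, with 1 point per gene, a bar at the median and genes called by limma in purple. Hpgds, Cybb, Hmox1 and Cyba lie to the right at 0.95 to 1.51, and Mgst3, Sesn1, Idh1 and Gstm5 to the left at -0.67 to -0.57.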

How the data were processed

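RNA from optic nerves of 3 sham and 3 ON-CR mice was made into libraries with a SMARTer Ultra Low kit, which does not mark strand. DRAGEN was used by the authors for alignment and quantification against Ensembl gene models (mm10), followed by median normalization in Partek 10.0 per the labels and the methods. The deposited values are a normalized signal per gene, not raw counts, so count models were not used. Estimated reads were obtained by dividing by the value of 1 read in each library, after which 64.8% to 67.6% of values were whole (within 0.01), and served for depth alone.

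The test was limma (version 3.58.1, R version 4.3.3) on log2 of the value plus a pseudocount of 1, with trended prior variance, Benjamini-Hochberg adjustment over 25755 genes and no filter. The fit was checked on simulated data. The labels give each library its own mouse number, and libraries were treated as separate animals. The paper's methods for RNA extraction and qPCR describe more than 1 mouse per sample, and do not say whether this held for sequencing. Whether any library pooled RNA of several mice was not tested, so each n counts libraries. With 3 against 3, an exact permutation test of a single gene cannot go below 0.1, so none was run. Coordinates and exon lengths came from GENCODE annotation of GRCm38 and promoters from RefSeq.

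The members and lists were chosen with earlier results of these data known. Genes named were all members, list genes with adjusted p at or under 0.05 and, in lists without one, up to 3 with the largest absolute log2 fold change and a mean of at least 50. Names added after values were seen are marked. Alternatives were pseudocounts of 0.5 and 2, a minimum value of 10 in 3 libraries, upper-quartile, total-sum and TMM-like scaling, no trend, robust and weighted fits, leaving out each mouse and, chosen after seeing the data, leaving out ON-CR mice 5 and 6.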

Additional observations from a re-analysis of the deposited data

How the results depend on the processing

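The counts of calls, the median of the members and the log2 fold changes of named genes were recomputed in 16 alternative fits. Within-library ratios, medians of the pathway lists, overlap of groups, levels per kb and likeness were not. The count of genes called among all genes was 540 (250 higher, 290 lower). It was 7 without the mean-variance trend and between 1 and 854 when mice were left out, lowest without both ON-CR mice 5 and 6, which leaves 1 ON-CR mouse that is assumed to vary like the sham mice. Leaving out ON-CR mouse 6 alone gave 67, and leaving out mouse 5 alone gave 854. Total-sum scaling moved the median of all genes by 0.127 on the log2 scale and gave 421 higher and 195 lower. Of the members, Idh1 was called in 10 of 16 fits (limma adjusted p 0.0214 to 0.512). The count was 0 without the trend and 0 to 1 when mice were left out. No other member was called in any fit. The count of pathway genes called, 7 in the reported fit, was 0 without the trend, 12 with array quality weights, 10 with total-sum scaling (9 higher, 1 lower) and 0 to 15 when mice were left out. Hpgds was called in 14 of 16. Of the list genes named as not called, Glo1, Aldh1l2 and Sephs2 were called with array quality weights, and Aldh1l2 with total-sum scaling.

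Log2 fold changes that changed sign were all near 0 in the reported fit. Upper-quartile scaling gave 0.0053 for Gclc. Total-sum scaling gave 0.12 for Gclc, 0.064 for Txnrd1, 0.073 for Slc7a11, 0.041 for Gpx8 and 0.058 for Gpx7. With mice left out, Gclc ranged from -0.11 to 0.10, Txnrd1 from -0.17 to 0.088, Slc7a11 from -0.24 to 0.16, Gpx4 from -0.12 to 0.10, Gpx8 from -0.16 to 0.046, Idh2 from -0.0083 to 0.073, Slc3a2 from -0.022 to 0.18 and Gpx4-ps2 from -0.0065 to 0.20. No paired analysis was possible because the mice carry different numbers in the 2 groups. The number of mice, 3 per group, limits the precision of every value, and the intervals of the 9 members not called leave room for changes as large as -0.66 or 0.53 on the log2 scale.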
